A study of Arabidopsis thaliana with 30 samples.

Results

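PDC2, AT3G10040 and AT4G17260 are 3 genes of the Arabidopsis low-oxygen response, described here in explants of roots and of aerial organs during callus induction. They were taken by name from the probe-to-gene table of the array, where each is the only gene of its probe set, and they are 3 of 13350 genes named in this way among 22746 probe sets that are not array controls. PDC2 (locus AT5G54960) encodes a pyruvate decarboxylase, the enzyme that commits pyruvate to ethanol fermentation. AT3G10040 carries the synonym HRA1, HYPOXIA RESPONSE ATTENUATOR1, in the RefSeq gene table and encodes a trihelix transcription factor known to dampen the factors that switch on low-oxygen genes. AT4G17260 has no name beyond its locus code in the tables used here and is known as the gene of L-lactate dehydrogenase, which turns pyruvate into lactate.

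When oxygen is too low for respiration, plant cells regenerate NAD+ by fermenting pyruvate to ethanol or lactate, and glycolysis then supplies ATP without oxygen. The response is driven by ethylene response factors of group VII, which are broken down through the N-degron pathway while oxygen is present and accumulate when it is short. A small common set of genes, among them those of fermentation and the attenuator HRA1, is induced in many organs by low oxygen, and roots are known for meeting such conditions often.

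The study followed gene expression over the first days of callus induction, in which cut plant organs are placed on hormone-containing medium and form unorganised tissue. All samples were wild-type Columbia-0, with segments of roots or of aerial organs cut from seedlings 10 days old, which had grown on solid MS at 22 °C under 16 h light and 8 h dark. Total RNA (about 5 µg) was labelled and hybridised to Affymetrix ATH1-type arrays after the explants had spent 0, 12, 24, 48 or 96 h on callus-inducing medium. Each combination of organ and time had 3 arrays, 30 in all. No explants kept off the medium were among the samples, so the medium, the cutting of the organs and the age of the explants cannot be told apart. At 12 h the time of day also differs from that of 0 h and cannot be told apart from these. By their nominal times the samples of 24, 48 and 96 h lie whole days after 0 h. The labels call the 3 arrays of a group biological replicates and do not say how many plants each RNA came from.

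Values are MAS5 signals in arbitrary units, on a scale that differs between probe sets, so that levels are compared only within a gene. Across the 30 arrays the median signal was 138.5 to 182.2, replicate arrays correlated at r = 0.932 to 0.977 over tested probe sets on the log2 scale, and no array was a copy of another. Of 4 photosynthetic marker genes, 4 were higher in aerial than in root explants at 0 h, and of 4 root markers 3 were higher in root explants. The summed signal of the photosynthetic markers was 205.4 to 427.2 on the root arrays at any time. In aerial explants it was 77720 to 108000 at 0 h and 7776 to 10800 at 96 h. The summed signal of the root markers was 1072 to 3720 in root explants and 26.8 to 299.7 in aerial explants, where it was 184.8 to 299.7 at 96 h. Among these root markers EXPA7 and EXPA18, expansins of root hairs, had mean signals of 91.57 and 70.43 in root explants at 0 h and of 947 and 669.2 at 12 h.

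PDC2 gave its highest group mean in root explants at 0 h. The signals on the 3 root arrays were 4209.4, 4152.4 and 2483.9 at 0 h, a mean of 3615 ± 980.2 (SD, n = 3), and 766.8, 2851.5 and 1485.6 after 12 h. They were 1014.5, 1469.6 and 1449 after 24 h, 1134.3, 1513.5 and 1101.7 after 48 h, and 1051.3, 1415.3 and 1286.3 after 96 h. The 12 h arrays were widely spread and their highest lay above the lowest array of 0 h, whereas every array from 24 h on lay below all 3 arrays of 0 h. In aerial explants PDC2 gave 234.9, 621.4 and 558.7 at 0 h, then 981.9, 1365.3 and 1034.8 after 12 h. The aerial signals were 398.9, 586.9 and 698.5 after 24 h, 363, 575 and 759.8 after 48 h, and 615.5, 568.4 and 811.9 after 96 h. The 3 aerial arrays of 12 h thus lay above those of every other aerial time.

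AT3G10040 stood out in a single group, the root explants at 0 h. There it gave 918.1, 1106.5 and 934, a mean of 986.2 ± 104.5 (SD, n = 3), and after 12 h 53.6, 115.9 and 139.2. The later root arrays gave 94, 271.8 and 73.8 after 24 h, 190.7, 367.2 and 179.6 after 48 h, and 175.4, 380.9 and 330.4 after 96 h. No later root array reached the range of 0 h. Aerial explants gave 79, 50.6 and 129.7 at 0 h and 109.3, 46.6 and 85.7 after 12 h. They gave 89.3, 36.6 and 30.3 after 24 h, 98.3, 6.6 and 69.9 after 48 h, and 147, 133 and 144 after 96 h. Most of these aerial signals were low for the array: taking 87.4, the 40th percentile of all signals, as a limit, 20 of the 30 arrays lay above it, but only 1 of 3 in each aerial group from 0 h to 48 h.

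AT4G17260 was also highest in root explants at 0 h. Root explants gave 5502.7, 7349.3 and 7756.4 at 0 h, a mean of 6869 ± 1201 (SD, n = 3), and 973.4, 2205 and 1661.8 after 12 h. They gave 1032.7, 1657.2 and 1861.6 after 24 h, 942.4, 1778.3 and 1600.9 after 48 h, and 1902.7, 3623 and 2588.1 after 96 h. Each later root array lay below the 3 arrays of 0 h, and the 96 h arrays lay above all arrays of 48 h. In aerial explants the signals were 421.9, 551.1 and 642 at 0 h, 759.6, 964.6 and 657.9 after 12 h, and 754.2, 773.2 and 688 after 24 h. They were 726.7, 620.1 and 712 after 48 h and 1116.1, 1149.5 and 1599 after 96 h, so that the 96 h arrays lay above all other aerial arrays.

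**Figure D1:**
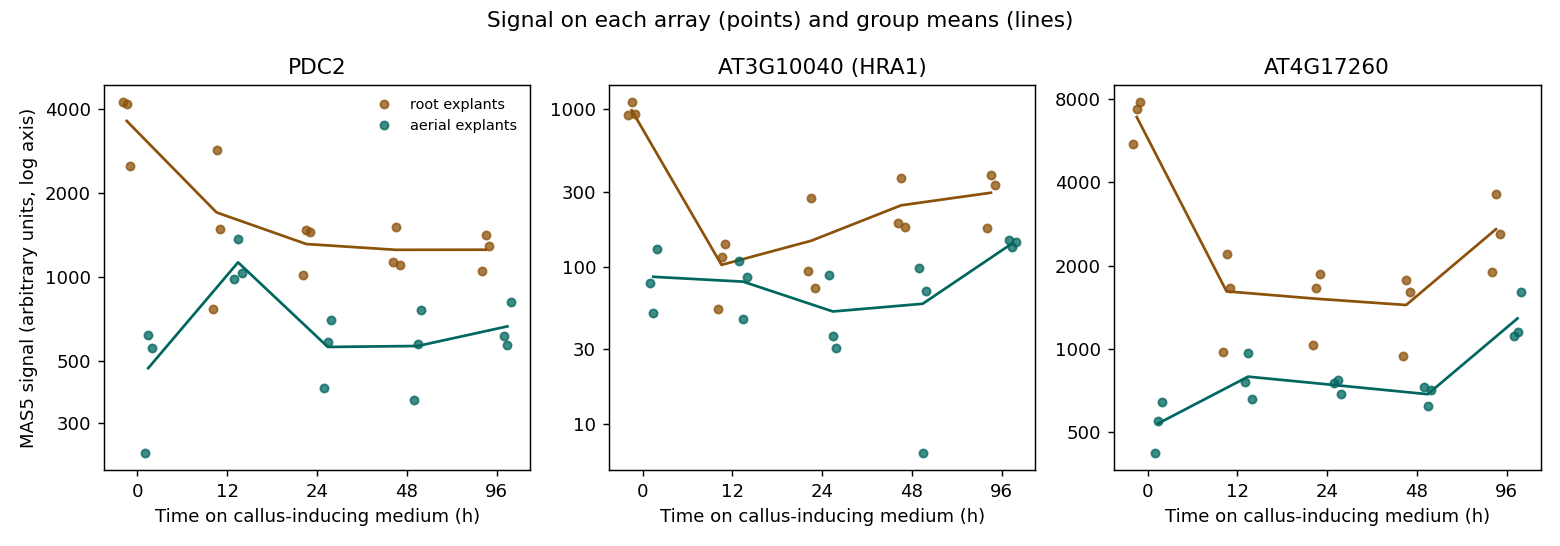
MAS5 signal (arbitrary units, log axis) against hours on callus-inducing medium for the 3 genes, with a point for each array, a line through the group means, and root and aerial explants in different colours. Root explants at 0 h sit at the top of each panel, with all 3 arrays above every other array for AT3G10040 and AT4G17260 and 2 of 3 for PDC2.

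In root explants all 3 genes fell after transfer and stayed below 0 h at each of the 4 later times, so that 3 of 3 were called down at 12, 24, 48 and 96 h. Of all 16765 tested probe sets, 15.5% were called down at 12 h, 17.8% at 24 h, 19.7% at 48 h and 21% at 96 h. A call here is an adjusted p below 0.05 in limma, fitted over all 30 arrays on log2(signal + 22), with Benjamini-Hochberg adjustment over the tested probe sets. Each change below is on that scale, which understates the changes of dim genes. In these bulk samples fewer cells that express a gene and less of its RNA per cell cannot be told apart.

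AT3G10040 had the largest fall of the 3 genes at 12 h, of -3.08 ± 0.45 (SE, 8.45-fold, limma adjusted p = 3.76e-06). Its later changes from 0 h were -2.76 at 24 h, -1.98 at 48 h and -1.73 at 96 h, and no step between successive later times was called in root explants. AT4G17260 fell by 2.14 ± 0.272 on the log2 scale at 12 h (4.39-fold, limma adjusted p = 4.48e-07) and held -2.19 and -2.27 at 24 and 48 h. At 96 h its change was -1.37 (adjusted p = 9.8e-05), and the step from 48 h to 96 h was a called rise of 0.90 ± 0.272 (limma adjusted p = 0.0395), in a comparison where 3.72% of probe sets were called up. PDC2 fell by 1.23 ± 0.349 on the log2 scale at 12 h (2.35-fold, limma adjusted p = 0.00615), with root groups that overlapped. That call ended without array 1 of the 12 h root explants, where the change was -0.77 (adjusted p = 0.0916). From 24 h on PDC2 was level, with changes of -1.43, -1.49 and -1.49 (limma adjusted p = 0.00136, 0.00073 and 0.000651). None of the 3 genes was called in the root steps from 12 h to 24 h or from 24 h to 48 h by limma, where 8.63% and 3.83% of all probe sets were called in either direction, and 0 of 3 had an unadjusted p below 0.05 in either step.

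In aerial explants no fall was called, and each of 2 genes was called up at a single time. PDC2 rose by 1.31 ± 0.349 at 12 h (2.48-fold, limma adjusted p = 0.00531), the only one of the 3 genes called at that time, when 13.5% of probe sets were called up and 13.8% down. Without array 1 of the 0 h aerial explants the change was 0.90 and was not called (adjusted p = 0.0731). PDC2 had differences from 0 h of 0.32 and 0.30 at 24 and 48 h (limma adjusted p = 0.562 and 0.56), neither of them called, with values down to -0.10 and -0.12 when single arrays were left out. At 96 h it gave 0.57 (95% interval -0.14 to 1.28; 0.15 to 0.82 over the arrays left out), also not called. The step from 12 h to 24 h was -0.998 without overlap of the groups, and it was not called (limma adjusted p = 0.184; unadjusted p = 0.00781), in a comparison where 1.29% of probe sets were called in either direction.

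AT4G17260 rose at 96 h, by 1.23 ± 0.272 (2.34-fold, limma adjusted p = 0.000483), when 26% of probe sets were called up and 18.6% down. Its step from 48 h to 96 h was 0.87 ± 0.272 (limma adjusted p = 0.0452), with 3.75% of probe sets called up, close in size to the 0.90 of root explants. Both steps lie near the threshold and lost their call under 4 of 8 other settings each and without single arrays, the root step being 0.63 without root array 1 of 48 h (adjusted p = 0.213) and the aerial step 0.71 without aerial array 3 of 96 h (adjusted p = 0.195). At 12 and 24 h its aerial arrays lay above those of 0 h without overlap, at changes of 0.55 and 0.46 that were not called (limma adjusted p = 0.143 and 0.235). With the replicate block the change at 12 h was called (adjusted p = 0.0213). AT3G10040 was called at no aerial time, with changes of -0.07, -0.57, -0.61 and 0.66 from 12 to 96 h. Its 96 h arrays, at 133 to 147, lay just above the 50.6 to 129.7 of 0 h, and the interval of that change ran from -0.27 to 1.58. At 24 and 48 h limma called 0 of the 3 genes in aerial explants, and 0 had an unadjusted p below 0.05, while 11.4% and 17.4% of probe sets were called up and 12.4% and 14% down. Between 24 and 48 h in aerial explants 4.35% of probe sets were called in either direction and none of the 3 genes, with 0 of 3 at an unadjusted p below 0.05.

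The organs differed most before transfer. At 0 h root explants were higher for 3 of 3 genes, against 31.9% of probe sets called higher in root. The difference was 2.95 ± 0.349 for PDC2 (7.73-fold, limma adjusted p = 1.86e-08), 3.28 ± 0.45 for AT3G10040 (9.7-fold, adjusted p = 2.73e-07) and 3.62 ± 0.272 for AT4G17260 (12.3-fold, adjusted p = 1.64e-12). None of these root and aerial groups overlapped. The share of all probe sets without such overlap was not counted, and 62% of them were called in either direction at 0 h. At 12 h the difference for PDC2 was 0.41 (interval -0.31 to 1.12) and for AT3G10040 0.26 (interval -0.66 to 1.19), neither of them called. Without array 1 of the 12 h root explants the PDC2 difference was 0.87 and was called (adjusted p = 0.0318).

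AT4G17260 kept a steady difference between the organs after 0 h, of 0.94, 0.98, 1.00 and 1.03 at 12, 24, 48 and 96 h, called each time with no overlap between root and aerial arrays (limma adjusted p = 0.00379, 0.00279, 0.00268 and 0.00256). It was the 1 of 3 genes called at 12 h, when 34.4% of probe sets were called higher in root. For PDC2 the difference was 1.21 at 24 h, 1.16 at 48 h and 0.90 at 96 h, all called. The PDC2 call at 48 h ended without array 1 of the 48 h aerial explants (0.88, adjusted p = 0.0547), and the one at 96 h ended under median centring (0.78) and when root array 2 or 3 or aerial array 1 or 2 of that time was left out (0.79 to 0.87). AT3G10040 differed by 1.09 at 24 h (limma adjusted p = 0.0378) with overlapping groups, by 1.91 at 48 h (adjusted p = 0.000718), and by 0.90 at 96 h, which was not called (adjusted p = 0.0982) although the arrays did not overlap. Without array 2 of the 24 h root explants its difference at 24 h was 0.59 and was not called (adjusted p = 0.285), and the call was also lost under 4 of 8 other settings and without aerial array 2 or 3 of 24 h (0.96 and 0.88). Calls higher in root thus counted 3 of 3 genes at 24 h, 3 of 3 at 48 h and 2 of 3 at 96 h, beside 36.1%, 31.5% and 28.9% of all probe sets.

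The change from 0 h differed between the organs for all 3 genes at 12, 24 and 96 h and for 2 of 3 at 48 h. The root change minus the aerial change for AT4G17260 was nearly constant, at -2.68, -2.65, -2.63 and -2.60 over the 4 times (SE 0.384, limma adjusted p between 2.08e-06 and 5.11e-06). For PDC2 it was -2.55 at 12 h, -1.74 at 24 h, -1.79 at 48 h and -2.06 at 96 h (SE 0.493, limma adjusted p between 0.000246 and 0.00647). For AT3G10040 it was -3.01, -2.19 and -2.38 at 12, 24 and 96 h (SE 0.636), and at 48 h -1.37 with an adjusted p of 0.0805 and an interval of -2.67 to -0.07. Its call at 24 h ended with a pseudocount of 1 (-2.20, adjusted p = 0.0673), and with a pseudocount of 64 the value at 48 h was called (-1.46, adjusted p = 0.00943), as it was with the replicate block (adjusted p = 0.0231). Of all probe sets, 13.5%, 15.9%, 20.1% and 23% had such a difference called below 0 at 12, 24, 48 and 96 h. The root changes, the difference between organs at 0 h and these differences of changes all rest on the same 3 root arrays of 0 h, so they are different views of one set of measurements and do not support each other.

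**Figure D2:**
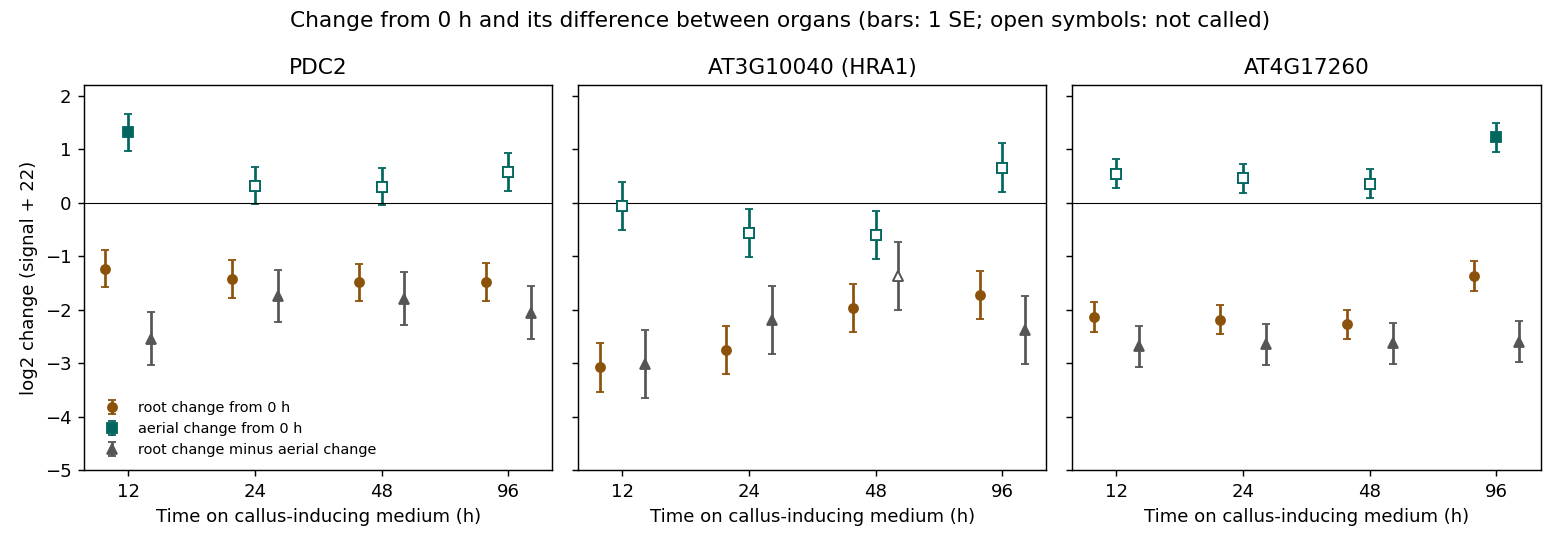
Change from 0 h on the log2(signal + 22) scale against hours on callus-inducing medium for the 3 genes, for root explants (circles), aerial explants (squares) and the root change minus the aerial change (triangles), with bars of 1 SE. Filled symbols were called at an adjusted p below 0.05: all root changes are filled and lie below 0, whereas in aerial explants only PDC2 at 12 h and AT4G17260 at 96 h are filled.

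Centring each array on its median, an alternative scaling, lowered the middle of all root changes by 0.13, 0.13, 0.18 and 0.27 at 12, 24, 48 and 96 h and that of the differences of changes by 0.21, 0.21, 0.13 and 0.23. With it the share of root calls that were up went from 58.3% to 46.3% at 12 h, from 61.5% to 50.4% at 48 h and from 63.3% to 48.7% at 96 h. Calls down then made up 19.1%, 24% and 27.1% of all probe sets. For the differences of changes the share up went from 56.4% to 40.2% at 12 h and from 58.9% to 44.6% at 24 h, with 17.6% and 19.7% of probe sets called below 0. For the steps it went from 52.2% to 40.9% between 48 and 96 h in root explants and from 67.6% to 45.5% between 24 and 48 h in aerial explants. It also moved the middle of the organ difference by 0.12 at 0 h and by -0.12 at 96 h, and that of the aerial step from 24 to 48 h by -0.13. Quantile normalisation moved the middle of the root changes at 96 h by -0.11. The falls of the 3 genes in root explants kept their direction and calls at all 4 times under both.

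Ordered by group mean, root explants at 0 h came first of the 10 groups for each gene. For PDC2 the order went on with root explants at 12, 24, 96 and 48 h, aerial explants at 12 h, and then aerial explants at 96, 48, 24 and 0 h. Neighbouring groups in this order overlapped everywhere except between aerial 12 h and aerial 96 h. Such overlap does not settle whether 2 groups differ, as root 0 h and root 12 h overlapped and their change was called. For AT4G17260 root explants at 96 h came second and the ranges of neighbours parted at 2 places, after root 0 h and between aerial 96 h and aerial 12 h. For AT3G10040 the only gap lay between root 0 h and the next group, root 96 h. The highest group mean was 7.66 times the lowest for PDC2, 18.9 times for AT3G10040 and 12.8 times for AT4G17260.

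The 3 genes varied together across the groups, given here as a description. Over the 10 group means of log2 signal Pearson's r was 0.82 between PDC2 and AT3G10040, 0.90 between PDC2 and AT4G17260 and 0.93 between AT3G10040 and AT4G17260. Within the 5 root groups r was 0.81, 0.90 and 0.92, and within the 5 aerial groups 0.21, 0.42 and 0.65. The points share the same arrays, and the root group of 0 h is the highest of every gene. Among 9048 genes ordered by r with PDC2 over the 10 group means, AT4G17260 had rank 86 and AT3G10040 rank 413. In the same order for AT3G10040, AT4G17260 had rank 5. Deviations of single arrays from their group means also went together in root explants, with r of 0.54, 0.66 and 0.57 over 15 arrays, and in aerial explants r was -0.35, 0.53 and 0.17. Root array 1 was the lowest of its group at 5 of 5 times for AT4G17260 and at 3 of 5 for each of the others, and root array 2 was the highest at 4 of 5 times for PDC2 and AT3G10040 and at 3 of 5 for AT4G17260.

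Of 9048 compared genes with a tested probe set of their own, those whose group means over the 10 groups were most like a member's are given by r alone. AT2G07741 (r = 0.981), AT3G11580 (0.965), AT2G33630 (0.962), AT2G04305 (0.96) and AT5G41100 (0.959) were most like PDC2. AT5G10040 (r = 0.951), AT5G02170 (0.941), AT1G55390 (0.935), AT1G72540 (0.934) and AT4G17260 itself (0.933) were most like AT3G10040. For AT4G17260 they were AT3G55470 (r = 0.979), AT5G10040 (0.967), AT1G23850 (0.964), AT3G27880 (0.963) and AT1G22830 (0.96). AT5G10040, a gene of the hypoxia list below, was thus near both AT3G10040 and AT4G17260: its mean signal was 1218 ± 589.8 (SD, n = 3) in root explants at 0 h and 133.3 to 261.4 in the later root groups.

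Other genes of the low-oxygen response were measured as well, and most of those measured fell in root explants at 12, 24 and 48 h. A list of 46 loci of the core hypoxia response was drawn up from general knowledge, with earlier results of these data known. Of these loci 22, the 3 genes included, had a tested probe set of their own. All 22 passed the filter on low signals, which asked for 3 arrays above 87.4 and can be passed through root explants at 0 h alone. The other 24 loci, among them those of alcohol dehydrogenase and of another pyruvate decarboxylase, were not analysed here. Of the 19 genes beside the 3 members, 19 were called down at 12 h, 17 at 24 h, 15 at 48 h and 11 at 96 h, beside the 15.5%, 17.8%, 19.7% and 21% of all probe sets. Their median change was -2.07, -1.85, -1.34 and -0.85, and that of all tested probe sets 0.10, 0.15, 0.20 and 0.26. At all 4 times 11 of the 19 were called down, as were 9.81% of all tested probe sets.

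AT1G05575 fell most at 12 h, by 3.66 ± 0.447 on the log2 scale, its mean signal being 4617 ± 843.8 (SD, n = 3) at 0 h and 364.7 ± 171.6 at 12 h, and its change was -5.28 at 48 h. AT5G42200 (-3.56) and AT3G23170 (-2.96) followed at 12 h. AT5G10040 (-2.82), AT4G10270 (-2.69), AT5G66985 (-2.67), AT1G33055 (-2.64), AT3G29970 (-2.56), AT2G17850 (-2.40) and AT4G24110 (-2.07) had changes between these and the list's median. Smaller changes at 12 h were those of AT1G19530 (-1.91), AT4G17670 (-1.90), AT4G27450 (-1.79), AT3G27220 (-1.51), AT5G44730 (-1.36), AT3G03270 (-1.31), AT4G33560 (-1.22) and AT1G26270 (-1.04). The smallest was that of TIL (-0.83), a temperature-induced lipocalin, which went on to -1.85, -2.16 and -2.23 at the later times. The calls at 12 h of AT1G19530 (-1.58 without root array 1 of 0 h, adjusted p = 0.0561) and TIL (-0.64 without the same array, adjusted p = 0.0565) ended without single arrays. That of AT4G33560 ended without single arrays and also with pseudocount 1 (adjusted p = 0.0748), without the filter (0.0518) and without the trend (0.0573).

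Later the root changes of the list diverged. At 96 h AT3G23170 (-3.37), AT5G10040 (-2.03), AT1G33055 (-2.07), AT5G42200 (-1.79), AT5G66985 (-1.56), AT3G03270 (-1.55), AT1G19530 (-1.53), AT4G17670 (-0.81) and AT1G26270 (-0.56) were still called down, as were AT1G05575 (-4.42) and TIL. Among these, the calls of AT1G19530 (-1.21 without root array 1 of 0 h, adjusted p = 0.112), AT1G26270 (-0.42 under quantile normalisation), AT4G17670 (-0.62 without root array 3 of 96 h) and AT5G10040 (-2.11 with a pseudocount of 1) ended under at least 1 alternative. Among genes no longer called were AT4G10270 (-0.17), AT3G27220 (-0.33), AT5G44730 (-0.28), AT2G17850 (-0.47), AT4G27450 (-0.69) and AT4G24110 (-0.85). Of these, AT4G24110 was called down under 5 of 8 other settings (adjusted p = 0.0441 with the replicate block), AT4G27450 under median centring (-0.96) and without root array 3 of 0 h (-1.10), and AT5G44730 under median centring (-0.55). The remaining 2 were called up at 96 h, when 36.2% of all probe sets were. One was AT4G33560 (1.14, limma). Its rise lost its call with pseudocount 1 (1.15, adjusted p = 0.0765) and under median centring (0.87, adjusted p = 0.134). The call was also lost without the trend (limma adjusted p = 0.0548) and without single arrays.

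The other was AT3G29970, whose course was its own. Its mean signal was 709.7 ± 456.5 (SD, n = 3) in root explants at 0 h, 83.53 ± 13.07 at 12 h and 5048 ± 1842 at 96 h. It fell by 2.56 on the log2 scale at 12 h and was above 0 h by 2.57 ± 0.494 at 48 h and 2.97 at 96 h. It was the 1 gene of the list called up in root explants at 48 h, beside 31.6% of all probe sets, and none of the 19 was called up by limma at 12 or 24 h, when 21.7% and 27.1% of probe sets were.

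**Figure D3:**
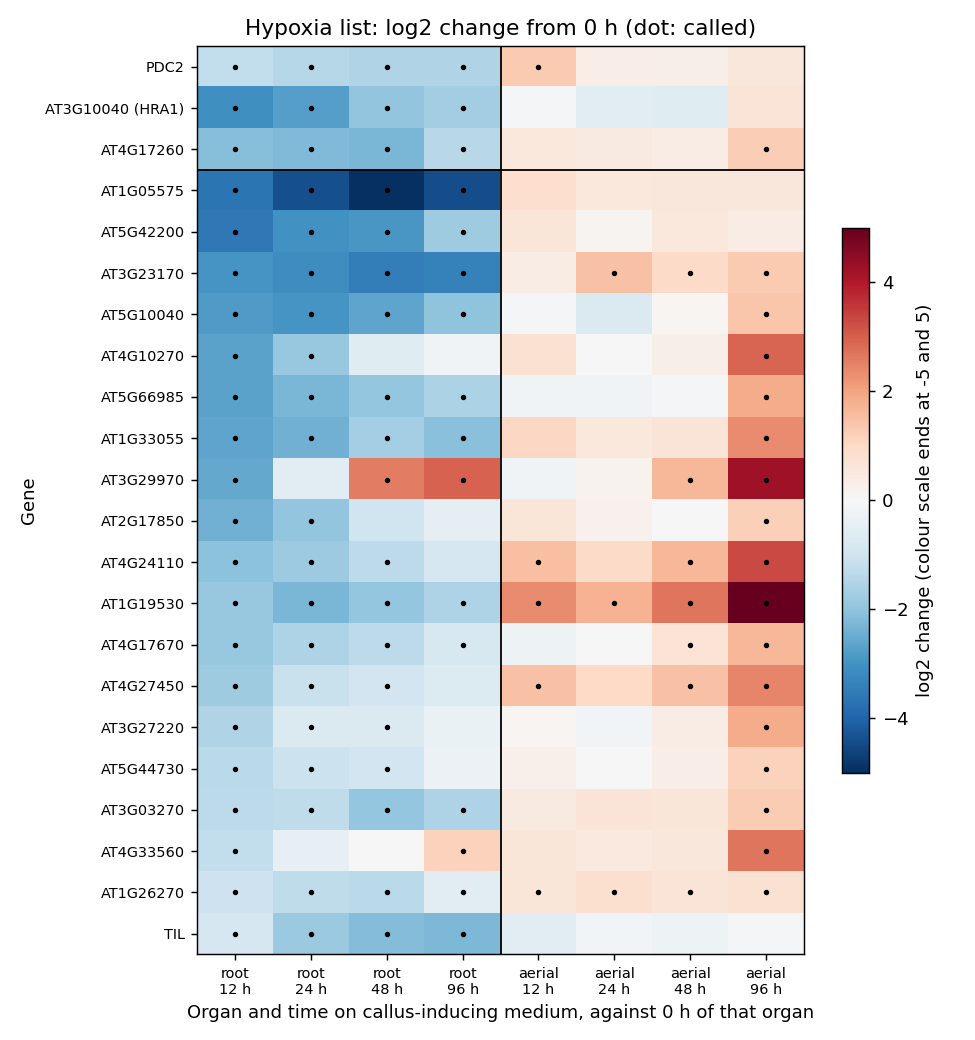
Log2 change from 0 h of the same organ for the 22 measured genes of the hypoxia list (rows, the 3 members on top) at 12, 24, 48 and 96 h in root and aerial explants (columns), with colours ending at -5 and 5 and a dot where limma called the change. In the first root column 19 of the 19 other genes are called down and blue, whereas AT3G29970 and AT4G33560 are red in the last root column, and in the last aerial column 16 of 19 are called up and red.

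In aerial explants the list rose late. Of the 19 genes beside the members, 4 were called up at 12 h, 3 at 24 h, 7 at 48 h and 16 at 96 h, beside 13.5%, 11.4%, 17.4% and 26% of all probe sets, and none was called down by limma. Their median change was 0.59, 0.21, 0.58 and 1.67, against -0.01, -0.02, 0.09 and 0.13 for all tested probe sets. The counts at the first 3 times ranged from 2 to 5, 2 to 5 and 4 to 7 when single arrays were left out, whereas that at 96 h ranged from 14 to 16. Between 48 and 96 h 10 of the 19 were called up, with a median step of 1.15, where 3.75% of all probe sets were called up. In aerial explants the summed photosynthetic markers were lowest and the summed root markers highest at this same time, in the values given above, and their part in these rises was not tested.

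The largest aerial rise was that of AT1G19530, with changes of 2.35 after 12 h and 4.96 ± 0.571 after 96 h (31.1-fold, limma adjusted p = 3.25e-08), with a mean signal of 70.7 ± 34.21 (SD, n = 3) at 0 h and 2768 ± 694.3 at 96 h. AT3G29970 rose by 4.22 at 96 h, from a mean of 9.833, at which no array lay above 87.4, to 645.6 ± 421. AT4G24110 (3.31), AT4G10270 (2.90), AT4G33560 (2.66), AT4G27450 (2.43) and AT1G33055 (2.38) also passed 2 on the log2 scale. The rises of AT3G27220 (1.85), AT5G66985 (1.84), AT4G17670 (1.67), AT5G10040 (1.38), AT3G23170 (1.32), AT3G03270 (1.28), AT2G17850 (1.18), AT5G44730 (1.16) and AT1G26270 (0.76) at 96 h were nearer to the 1.23 of AT4G17260. Those of AT2G17850 and AT5G10040 lost their calls without single arrays, with 0.48 without aerial array 3 of 96 h (adjusted p = 0.36) and 0.88 without aerial array 1 of 0 h (adjusted p = 0.192). The change of AT5G10040 was 2.497 with a pseudocount of 1 and 0.86 with 64, and that of AT3G03270 was 0.81 without aerial array 3 of 96 h. AT1G05575 (0.55), AT5G42200 (0.39) and TIL (-0.10) were not called. PDC2 and AT3G10040 were also not called at 96 h, as given above.

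Set organ against organ, the list was higher in root explants at 0 h for 19 of 19 genes, beside 31.9% of all probe sets, with a median difference of 4.29 against 0.05. AT1G19530 (7.10), AT5G66985 (6.47) and AT1G05575 (6.42) had the largest differences, and TIL (1.84), AT1G26270 (2.02) and AT5G42200 (2.14) the smallest. The median difference was 1.56, 2.31, 1.99 and 0.90 at 12, 24, 48 and 96 h, with 15, 15, 14 and 11 genes called higher in root beside 34.4%, 36.1%, 31.5% and 28.9% of all probe sets. AT5G42200 was called higher in aerial explants at 12 h (-2.02), 24 h (-0.999) and 48 h (-1.30), and AT3G23170 at 24 h (-1.66), 48 h (-1.52) and 96 h (-1.81). Of all probe sets 25.8%, 25.4%, 24.2% and 21.2% were called higher in aerial explants at those 4 times. The root change was called below the aerial change for 18, 16, 15 and 17 of the 19, beside 13.5%, 15.9%, 20.1% and 23% of all probe sets, and above it for none by limma, beside 17.5%, 22.8%, 24.6% and 29%.

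**Figure D4:**
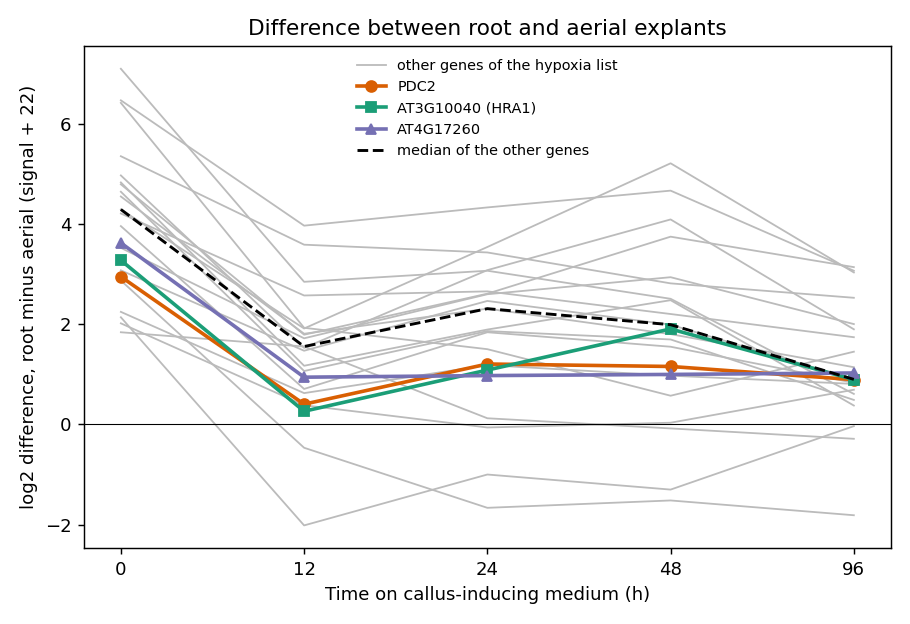
Difference between root and aerial explants on the log2(signal + 22) scale against hours on callus-inducing medium, with 1 grey line for each of the 19 other genes of the hypoxia list, coloured lines for the 3 members and a dashed line for the median of the 19. The median is 4.29 at 0 h and 0.90 at 96 h, and 2 grey lines pass below 0 to values past -1.

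Among the genes of the surrounding pathways, those measured for oxygen sensing came to AT3G10040 and MAP1A of 20 loci, and those for fermentation to PDC2 and AT4G17260 of 10. MAP1A, a methionine aminopeptidase of the kind that exposes the second residue of N-degron substrates, rose in root explants at 24 h (0.73 ± 0.191) and in aerial explants at 12 h (0.69) and 96 h (0.92). Its other root changes were 0.40, 0.31 and 0.16 at 12, 48 and 96 h, and its other aerial changes 0.42 and 0.47 at 24 and 48 h.

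The next list was drawn up for sucrose breakdown and glycolysis, the pathway that feeds fermentation. Of its 10 measured genes, 1, 3, 4 and 3 were called up in root explants at 12, 24, 48 and 96 h. At these times 2, 2, 3 and 4 were called down. Of all probe sets 21.7%, 27.1%, 31.6% and 36.2% were called up and 15.5%, 17.8%, 19.7% and 21% down, so that most of these root counts were near the background. In aerial explants 5, 4, 6 and 7 were called up and 0, 0, 1 and 1 down by limma. All probe sets had 13.5%, 11.4%, 17.4% and 26% called up and 13.8%, 12.4%, 14% and 18.6% down. At 12 h the aerial calls of AT5G08570 and AT1G76550 ended with only the groups compared (limma adjusted p = 0.0792 and 0.158). Both also ended without single arrays. The call down at 96 h, that of GAPC2, ended under quantile normalisation (-0.08). PPDK, pyruvate orthophosphate dikinase, had changes of 4.05 ± 0.338 and 3.01 in root explants and of 1.30 and 1.49 in aerial explants at 12 and 96 h, all called. It had a mean signal of 55.2 in root explants at 0 h, where no array lay above 87.4. It was the 1 gene of this list called up in root explants at 12 h. The enzyme makes phosphoenolpyruvate from pyruvate, against the direction of glycolysis. TPI, the cytosolic triosephosphate isomerase, fell in root explants by 0.68 on the log2 scale at 12 h and by 1.17 at 96 h. GAPC2, a cytosolic glyceraldehyde-3-phosphate dehydrogenase, fell by 0.63 at 12 h and by 0.39 under quantile normalisation. AT5G56350 changed by -1.74 in root explants at 96 h and by 1.00 in aerial explants at 12 h, AT5G63680 rose by 0.81 and 1.45 in aerial explants at 12 and 96 h, and AT5G08570 by 1.29 at 96 h.

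The pyruvate dehydrogenase complex, which carries pyruvate into respiration, moved little. Of its 4 measured genes 1 was called up in root explants at 12 h and 1 in aerial explants, beside 21.7% and 13.5% of all probe sets, in both cases MAB1, a beta subunit of the first enzyme (0.65 ± 0.159 and 0.46), and their median change stayed between -0.07 and 0.31 in all 8 comparisons with 0 h. Of 2 measured genes listed for alternative respiration both were called down in root explants at 96 h, beside 21% of all probe sets. NDB2, an external alternative NAD(P)H dehydrogenase, fell by 1.78 on the log2 scale. AT2G21640 fell by 3.17 and is not known as an enzyme of this pathway. The aerial changes of NDB2 were called rises of 1.74 ± 0.333 after 12 h and 0.94 after 96 h, the latter not called without aerial array 3 of 0 h (0.78). Of the 5 measured trihelix genes other than AT3G10040, GT2 changed by -1.36 and -2.34 in root explants at 12 and 96 h, AT5G01380 by -2.10 and AT2G38250 by -1.61 at 96 h, and GT-1 by -0.65 at 12 h. Calls down in root explants made up 15.5% and 21% of all probe sets at 12 and 96 h. The mean root signals at 96 h were low: 20 for GT2, with no array above 87.4, 82.1 for AT5G01380 and 87.5 for AT2G38250. AT1G76880 changed by -0.83 in aerial explants at 12 h, the 1 trihelix call there, when 13.8% of all probe sets were called down. The calls of GT-1, of AT1G76880 and of MAB1 in aerial explants ended with only the groups compared (limma adjusted p = 0.0612, 0.0741 and 0.122). Each of them also ended without single arrays. That of GT-1 ended with a pseudocount of 1, without the filter and without the trend as well (limma adjusted p = 0.0501, 0.0567 and 0.0527).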

How the data were processed

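The deposited values were array intensities, one MAS5 signal per probe set and array, made by the authors per the submitters' processing notes; no version or genome build is named in the sources used here. The signals ranged from 0.1 to 57102, and the mean of each array without its lowest and highest 2% was 500 to 500.1. Of 22810 probe sets 64 controls were left out. Gene names came from the platform table and RefSeq's gene table: 13513 probe sets had 1 gene, of which 13436 matched a locus, and 503 had several. Values were taken as log2(signal + 22), 22 being the 20th percentile, and the 16765 probe sets with 3 or more arrays above the 40th percentile (87.4) were tested with limma 3.58.1 in R 4.3.3, in one model of 10 group means over 30 arrays, eBayes with a mean-variance trend, and Benjamini-Hochberg adjustment within each of 23 comparisons. The procedure was tested on simulated data. All p-values are two-sided, and with 3 arrays a group their number limits the precision.

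The members and the gene lists were chosen with earlier results of these data known. Named are the 3 members, every measured gene of the hypoxia, fermentation and oxygen-sensing lists, the 3 largest called changes of each other list at 12 h and 96 h in each organ, and the 5 genes most like each member. Alternatives were pseudocounts 1 and 64, median centring, quantile normalization, no filter, no trend, a fit of only the groups compared, a replicate block, and each array left out in turn.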

Additional observations from a re-analysis of the deposited data

Results flagged for a closer look

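The change from 0 h differed between root and aerial explants by limma's test of the difference itself, on the log2 scale as root change minus aerial change, in 11 of the 12 cases of the 3 genes. Of all probe sets, 13.5%, 15.9%, 20.1% and 23% had such a difference called below 0 at 12, 24, 48 and 96 h. For PDC2 it was -2.55 at 12 h, -1.74 at 24 h, -1.79 at 48 h and -2.06 at 96 h. For AT3G10040 it was -3.01 at 12 h, -2.19 at 24 h and -2.38 at 96 h. For AT4G17260 it was -2.68, -2.65, -2.63 and -2.60 at the 4 times. All of them share the 0 h arrays of both organs.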

How the results depend on the processing

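Of 69 member results under 8 alternatives other than leaving out an array, 531 of 552 values stayed on the same side of the threshold and 21 changed side, none of these 21 with a change of direction. Some uncalled values near 0 changed sign, as that of AT3G10040 in aerial explants at 12 h (-0.082 to 0.013). With pseudocount 1, calls ended for AT3G10040 between organs at 24 h (1.40) and for its difference of changes at 24 h (-2.20), and for the AT4G17260 steps from 48 to 96 h in root (0.91) and aerial explants (0.89). With pseudocount 64 AT3G10040 was called between organs at 96 h (0.76) and in the difference of changes at 48 h (-1.46). Median centring ended the organ calls of AT3G10040 at 24 h (1.00) and PDC2 at 96 h (0.78) and both AT4G17260 steps (0.82 root, 0.89 aerial). Without the filter the AT3G10040 organ call at 24 h (1.09) and the aerial AT4G17260 step (0.87) were lost, and without the trend both steps (0.90 and 0.87). With only the groups compared, calls ended for AT3G10040 between organs at 24 h (1.09) and the AT4G17260 root step (0.90), the organ difference of AT3G10040 at 96 h (0.90) was called, the hypoxia list had 4 aerial calls up at 48 h against 7, and all probe sets had 1319, 1075 and 1926 aerial calls up at 12, 24 and 48 h against 2262, 1913 and 2909. The replicate block made calls of AT4G17260 in aerial explants at 12 h (0.55), of AT3G10040 between organs at 96 h (0.90), in the difference of changes at 48 h (-1.37) and in its aerial step from 48 to 96 h (1.26), and brought the list's aerial calls at 24 h from 3 to 5. Deviations of same-numbered arrays correlated at -0.0472 to 0.389 in root and -0.117 to 0.302 in aerial explants, with 13 and 14 of 30 pairs above 0.1. As not every pair passed 0.1 and the labels give no shared batch, the numbers were not used to pair arrays, although medians were higher for same than for different numbers (0.0945 against -0.0579 in root, 0.0854 against -0.0528 in aerial explants) and 11 of 15 and 13 of 15 arrays matched their own number best, a hint from the data. Leaving out single arrays changed the call of 11 member results. PDC2 ranged from -1.70 to -0.77 in root and from 0.90 to 1.56 in aerial explants at 12 h, and between organs from -0.061 to 0.87 at 12 h, 0.88 to 1.39 at 48 h and 0.79 to 1.04 at 96 h. AT3G10040 ranged between organs from 0.59 to 1.42 at 24 h and 0.69 to 1.21 at 96 h, in the difference of changes at 48 h from -2.00 to -0.96, and in its aerial step from 48 to 96 h from 0.63 to 1.67. The AT4G17260 steps ranged from 0.63 to 1.13 in root and 0.71 to 0.96 in aerial explants. The list's aerial counts ranged from 2 to 5 at 12 h, 2 to 5 at 24 h and 4 to 7 at 48 h, and all probe sets called up in aerial explants at 24 h from 1273 (without array 1 of 0 h) to 1989. The cause of these shifts was not tested. AT3G10040 lay at or under the filter's limit on most aerial arrays, where its changes depend on the pseudocount.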
